A study of Mus musculus with 10 samples.

Results

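Solute carrier transporters are the large set of membrane proteins, grouped into numbered SLC families, that move sugars, amino acids, ions, vitamins, nucleotides and metabolites across the cell surface and the membranes of organelles. Members were taken by name alone, as every gene of the deposited table whose symbol starts with Slc or Slco and a number. The rule used no measured value and found 213 of the 12160 listed genes. Of these, 5 carry the name without being transporters: the scaffold proteins Slc9a3r1 and Slc9a3r2, the neighbouring gene Slc7a6os, the adaptor Slc4a1ap and the pseudogene Slc2a4rg-ps.

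The libraries came from male wild type CD1 mice with pancreatitis caused by caerulein, an analogue of cholecystokinin that overstimulates acinar cells. The sample records give the strain as mixed. Dissociated pancreas was sorted into Cd45-negative, EpCAM-positive cells with surface Siglec F (tuft cells, 5 libraries) and without it (non-tuft epithelial cells, 5 libraries), with 100 cells in each library, and per the labels the 5 tuft libraries were from 5 individual mice. Per the study both populations were sorted from 5 mice, but the sources used here do not say which tuft and non-tuft libraries share a mouse. Untreated pancreas was not analysed here, so both groups carry the injury.

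Tuft cells are rare chemosensory epithelial cells, and in the pancreas they appear after injury. Acinar cells, which make the digestive enzymes, rely on steady uptake of amino acids. Duct cells secrete bicarbonate into the pancreatic juice with the help of transporters of the Slc4 and Slc26 families. Members of Slc25 sit in the inner mitochondrial membrane, members of Slc35 mostly in the Golgi and endoplasmic reticulum, and members of Slc2 and Slc5 carry sugars.

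All values are log2(RPKM + 1) after quantile normalization, so levels are per transcript length and can be set beside each other between genes. A value of 0 is the floor of a library, except in non-tuft library 2, whose floor was 0.17, and it means only that the gene was listed at the lowest value. No read counts were used here and the depth of the libraries is unknown. Genes were called when limma gave a Benjamini-Hochberg adjusted p under 0.05 over all 12160 genes together with a fold change over 4. A log2 fold change is the mean of the tuft libraries minus the mean of the non-tuft libraries, and it understates the change of low genes because of the added 1. These are bulk samples, so fewer cells of a type and less RNA per cell cannot be told apart.

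The labels were set beside marker genes, taken as the log2 of the summed RPKM plus 1. The marker lists were chosen with earlier results of these data known, so a match with the labels is not independent support. The 15 tuft cell markers were called higher in tuft libraries, 15 of 15, with summed levels of 12.09 to 13.61. In non-tuft libraries 1 to 5 they summed to 7.68, 9.13, 3.17, 1.22 and 9.13. Acinar markers were called lower for 17 of 21 genes, and their summed level was 16.42 to 17.05 in non-tuft libraries and 15.28, 14.55, 13.07, 16.36 and 9.83 in tuft libraries 1 to 5. Islet markers summed to 4.70 to 7.16 in tuft and 7.24 to 14.45 in non-tuft libraries, where 5 of 17 were called lower and 3 were at the floor in every tuft library. Duct markers summed to 9.15 to 9.97 and 10.52 to 12.97, with 2 of 10 called lower. Leukocyte markers summed to 4.08 to 5.45 in tuft and 0.81 to 5.45 in non-tuft libraries. Of these 6 genes 1 was called, Ptprc (Cd45), higher in tuft cells by 2.72 (adjusted p 0.00292 in limma). Stromal markers summed to 0 in tuft libraries 1 to 4, to 7.99 in tuft library 5 and to 0.53 to 9.56 in non-tuft libraries, highest in library 5. Of these 8 genes 0 were called. The non-tuft group held strong acinar RNA, and the part of each cell type in the results on transporters was not tested.

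Of the 213 members, 26 (12.2%) were called, against 8.31% of all genes tested. In tuft cells 15 members (7.04%) were higher, where 4.32% of all genes were, and 11 (5.16%) were lower, where 3.99% of all genes were. The median log2 difference over the members was -0.09, beside 0.02 over all genes, and 99 members lay above 0. Most members were close between the groups, and 130 (61.0%) differed by less than 1 log2 unit, as did 67.4% of all genes. The groups did not overlap for 31 members, 15 higher and 16 lower, or 14.6% beside 11.4% of all genes. The exact two-sided permutation test gives its smallest p, 0.00794, to each of these. At an adjusted p under 0.05 with no limit on the fold, 19 members were higher (6.19% of all genes were) and 15 lower (5.55% of all genes). An unadjusted p under 0.05 in limma was found for 68 of the 213 members and for 3053 of all 12160 genes. With the quantile normalized values further centred on 77 ribosomal protein genes, the split of called members moved from 57.7% higher to 83.3% higher. The median of all genes then moved from 0.02 to 0.81.

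**Figure D1:**
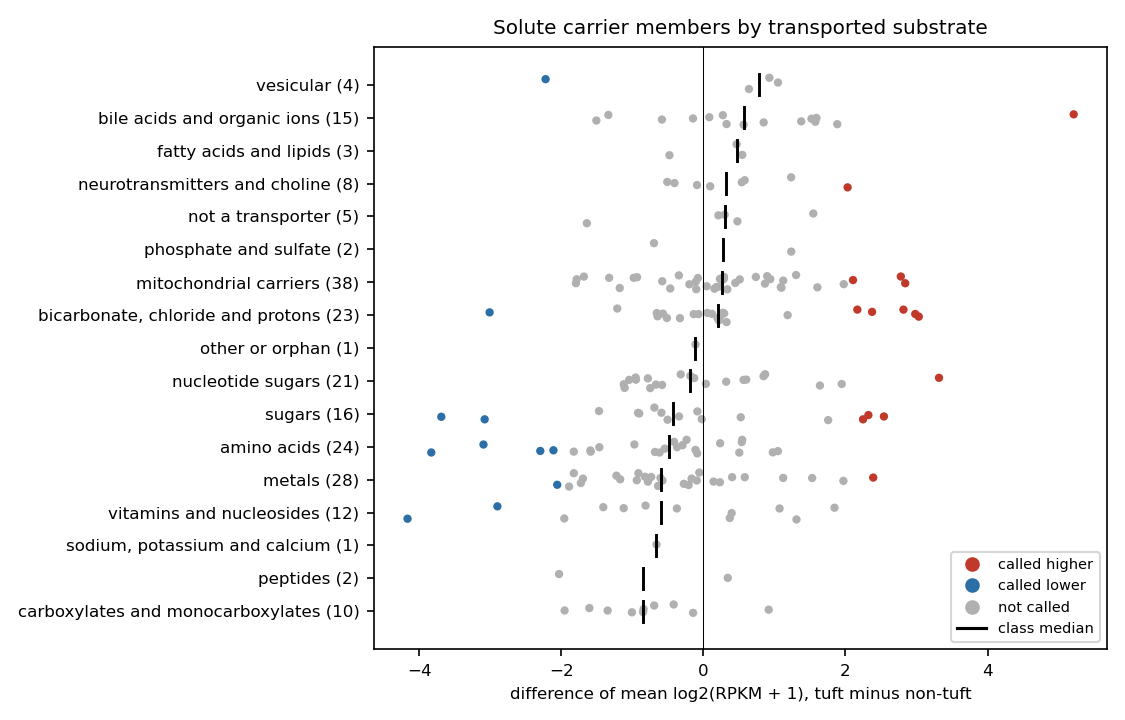
Difference between the group means of log2(RPKM + 1), tuft minus non-tuft, for each of the 213 members by transported substrate, with the number of members in brackets. Each point is 1 member, coloured by its call, and the black bar is the class median. Most points lie within 1 unit of 0, and the class for bicarbonate, chloride and protons has 5 called members above 0 and 1 below.

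By what the members carry, the share called lay above the 8.31% of all genes in some classes and near it in others. Of 24 amino acid transporters 4 (16.7%) were called, all lower in tuft cells, where 3.99% of all genes were lower. Of 12 carriers of vitamins and nucleosides 2 (16.7%) were called, both lower. Of 23 exchangers and cotransporters of bicarbonate, chloride, sulfate and protons, 5 were higher and 1 lower (26.1% called). Sugar transporters went both ways, with 3 higher and 2 lower of 16 (31.2%). Of 38 mitochondrial carriers 3 were called, all higher, and their 7.89% is about the share of all genes. The 28 metal transporters had 1 call in each direction (7.14%), and the 15 carriers of bile acids and organic ions had 1 call (6.67%), both near that share too. The 10 carriers of carboxylates had the lowest median of the classes with over 2 members, -0.85, with 0 called in limma. Of these 10, 2 had an unadjusted p under 0.05, as did 3053 of all 12160 genes. These counts describe the classes and neither a class nor a difference between classes was tested.

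**Figure D2:**
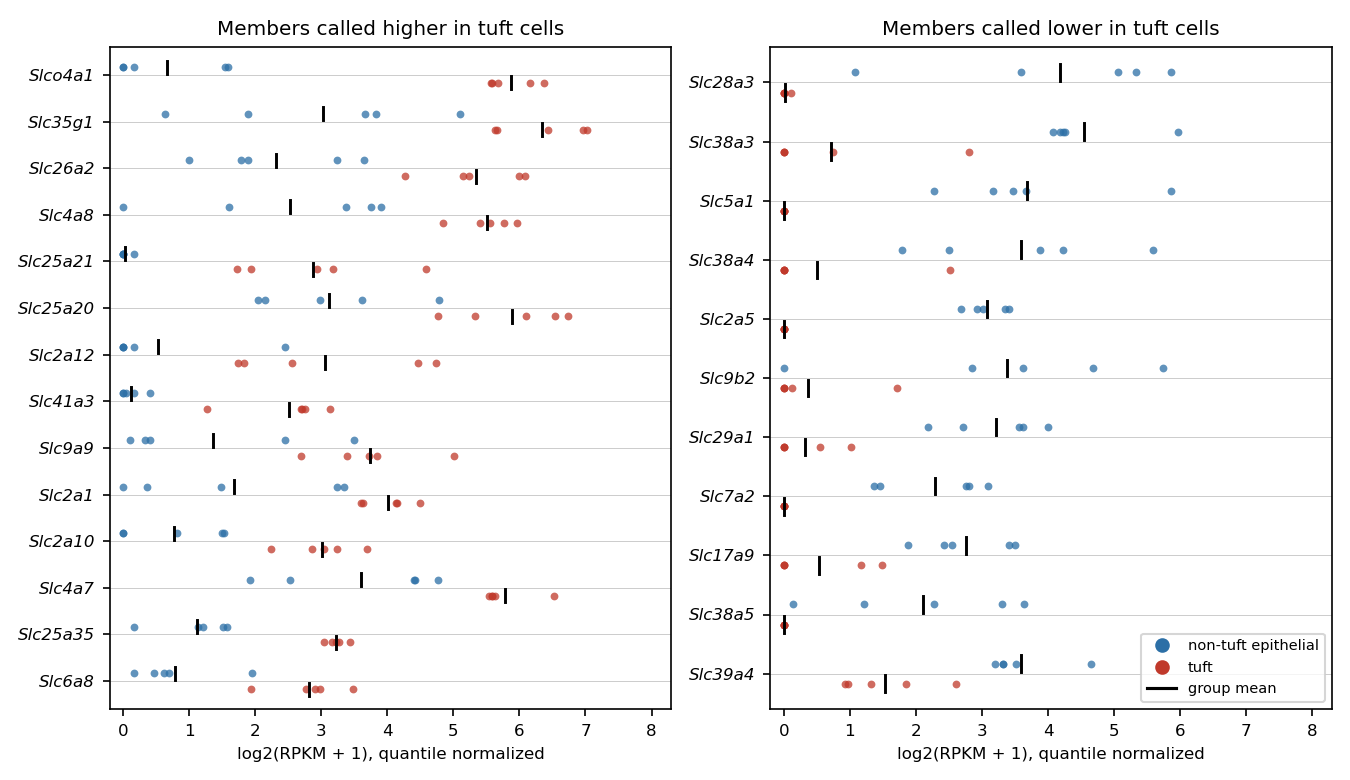
Level of each called member in the 10 libraries as log2(RPKM + 1), with 14 of the 15 members called higher in tuft cells on the left and 11 called lower on the right. Each point is 1 library and the black bar is the group mean. Slco4a1 is the farthest apart on the left, and Slc2a5, Slc5a1, Slc7a2 and Slc38a5 sit at 0 in all 5 tuft libraries on the right.

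Slco4a1, an organic anion transporter that carries thyroid hormone and prostaglandins, was the member with the largest difference of any between the groups. It lies at chr2:180190950-180209572 (NCBIM37, plus strand). It stood at 6.16, 5.57, 5.59, 6.37 and 5.68 in tuft libraries 1 to 5 and at 1.59, 0.17, 0, 0 and 1.55 in non-tuft libraries 1 to 5. No tuft library came near a non-tuft library, and 3 non-tuft libraries were at the floor. The log2 fold change was 5.21 (SE 0.45), 37.1-fold on the RPKM + 1 scale, with an adjusted p of 1.48e-05 in limma. In tuft cells its mean of 5.87 ± 0.37 (SD, n = 5) came just after those of the 5 highest members. It was the only called carrier of bile acids and organic ions of 15. Of these 15, 7 had an unadjusted p under 0.05 in limma, as did 3053 of all 12160 genes. The prostaglandin transporter Slco2a1 had a log2 difference of 1.58 and an adjusted p of 0.0463, under the fold asked for. Slc22a21, named after its value was seen, differed by 1.59 with an adjusted p of 0.0346.

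The sugar transporters were called in both directions. Slc2a1 (GLUT1), the basal glucose transporter of many tissues, Slc2a10 and Slc2a12 of the same facilitative family were higher in tuft cells. Slc2a5 (GLUT5), the fructose transporter, and Slc5a1 (SGLT1), the sodium-driven glucose and galactose transporter, were lower. The promoters of Slc2a1 and Slc2a5 are shown because these members of 1 family lie on the same chromosome and differed in opposite directions. Both are RefSeq sequences of GRCm38.p6, from 250 bases before to 50 after the start, on the plus strand at chr4:119108495-119108794 and chr4:150119094-150119393, with CG in capitals.
Slc2a1: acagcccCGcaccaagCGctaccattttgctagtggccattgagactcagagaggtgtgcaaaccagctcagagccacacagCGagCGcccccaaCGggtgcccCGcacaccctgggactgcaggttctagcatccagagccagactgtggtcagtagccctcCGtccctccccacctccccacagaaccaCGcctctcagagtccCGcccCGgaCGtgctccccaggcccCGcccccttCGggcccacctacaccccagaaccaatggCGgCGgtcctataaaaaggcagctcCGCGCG
Slc2a5: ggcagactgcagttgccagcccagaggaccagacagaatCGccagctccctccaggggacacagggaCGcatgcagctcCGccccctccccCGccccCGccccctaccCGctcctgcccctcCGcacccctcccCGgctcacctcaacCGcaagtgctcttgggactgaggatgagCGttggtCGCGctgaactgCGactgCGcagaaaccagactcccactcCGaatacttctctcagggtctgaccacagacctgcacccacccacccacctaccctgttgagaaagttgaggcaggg

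The Slc2a1 window holds 18 CG and the Slc2a5 window 15. RefSeq promoters matched 156 of the 213 members, with 210 windows. Of these windows 74.3% held at least 10 CG, beside 43.5% of all 32841 promoters. Those promoters are of 27018 genes and were not limited to the genes listed with expression values. Whether members differ from the other listed genes in CG was not tested. The share with at least 10 CG was 6 of 13 windows from 11 members called higher and 8 of 16 windows from 7 members called lower. Slc29a1 alone has 8 of those 16 windows. The octamer ATGCAAAT, searched on both strands, was in 1.74% of all promoters, in 2 windows of the members and in 0 of the windows of called members, which says only that these letters are not in these windows.

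Slc2a1 (chr4:118781316-118809935, NCBIM37) stood at 4.15, 3.60, 4.14, 3.64 and 4.50 in tuft libraries and at 3.34, 3.23, 0.37, 0 and 1.48 in non-tuft libraries. The groups did not overlap, but non-tuft libraries 1 and 2 came close to the tuft range. The log2 fold change was 2.32 (SE 0.65) with an adjusted p of 0.0334 in limma. The call was lost when any 1 of non-tuft libraries 3, 4 or 5 or of the 5 tuft libraries was left out, with adjusted p up to 0.0849 and log2 differences of 1.90 to 2.74.

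Slc2a10 stood at 2.23, 3.23, 3.70, 3.05 and 2.86 in tuft and at 1.53, 1.49, 0.81, 0 and 0 in non-tuft libraries. Every tuft library was above every non-tuft library, by a log2 fold change of 2.25 (SE 0.46, adjusted p 0.00579 in limma). Slc2a12 stood at 1.74, 1.84, 4.46, 2.55 and 4.73 in tuft and at 0, 0.17, 2.45, 0 and 0 in non-tuft libraries. Non-tuft library 3 lay inside the tuft range, and the log2 fold change of 2.54 (SE 0.71, adjusted p 0.0327) lost its call without any 1 of 7 libraries (non-tuft 1, 2, 4 and 5, tuft 3, 4 and 5), with adjusted p up to 0.0939.

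Slc2a5 (chr4:149493392-149518278, NCBIM37) was listed at 0 in all 5 tuft libraries. In non-tuft libraries it stood at 2.68, 2.93, 3.41, 3.35 and 3.02, a narrow range. The adjusted p was 8.37e-05 in limma, and no fold is given against a group at 0. Slc5a1 was also at 0 in every tuft library and stood at 3.47, 3.66, 3.17, 5.87 and 2.27 in non-tuft libraries, with an adjusted p of 0.00101. In all, 13 members were at the floor throughout the tuft group, as were 4.6% of the listed genes.

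The other 11 sugar carriers were not called. Slc50a1, a sugar transporter found in the Golgi, was the highest member of all in non-tuft cells at a mean of 7.59 and stood at 7.25 in tuft cells, a difference of -0.34 with a 95% interval of -1.22 to 0.53. Slc2a2 (GLUT2), the glucose transporter of islet beta cells and liver, was above the floor in 1 tuft library, at 3.14, and reached 3.96 in the non-tuft group. Its interval of -2.68 to 0.88 leaves a wide range of differences. Slc37a1, a glucose-6-phosphate antiporter named after its value was seen, had a difference of 1.76 and an adjusted p of 0.0842.

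**Figure D3:**
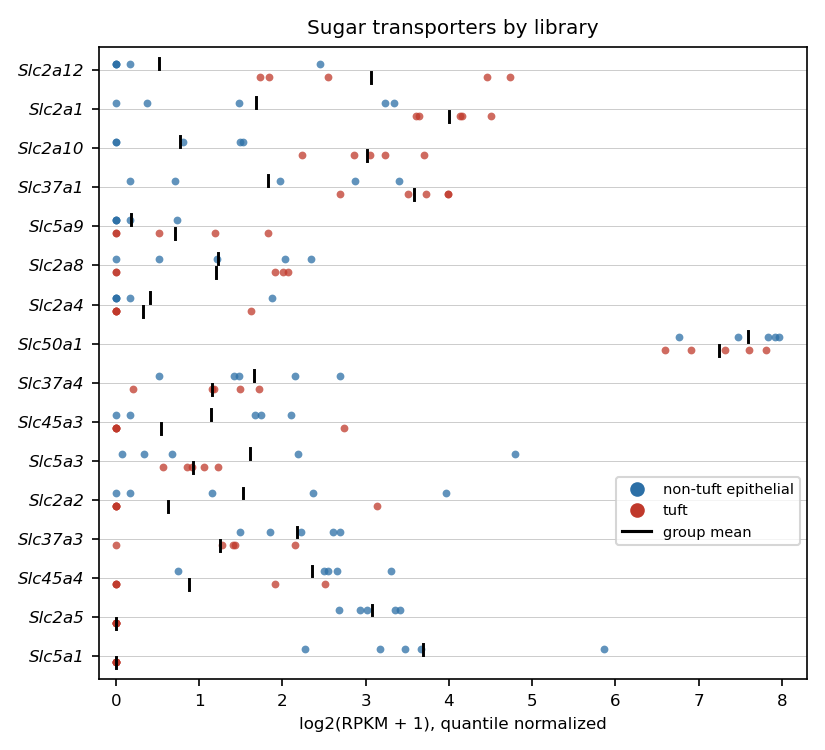
Level of each of the 16 sugar transporters in the 10 libraries as log2(RPKM + 1), ordered by the difference of the group means from highest in tuft cells at the top. Each point is 1 library and the black bar is the group mean. Slc2a12, Slc2a1 and Slc2a10 are higher in tuft cells, Slc2a5 and Slc5a1 are at 0 in all 5 tuft libraries, and Slc50a1 is high in both groups.

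The 4 called amino acid transporters were all lower in tuft cells. Slc38a3 (SNAT3), a glutamine, histidine and asparagine transporter, stood at 4.26, 5.97, 4.08, 4.22 and 4.18 in non-tuft libraries and at 0.75, 2.81, 0, 0 and 0 in tuft libraries. The groups did not overlap, with tuft library 2 the closest. The log2 fold change was -3.83 (SE 0.60) with an adjusted p of 0.00114 in limma. Slc38a5 (SNAT5), a near relative, stood at 3.30, 3.63, 0.14, 2.27 and 1.21 in non-tuft libraries and at 0 in all tuft libraries, and its call (adjusted p 0.0369) was lost without any 1 of 8 libraries, non-tuft 1, 2 and 4 and each tuft library, with adjusted p up to 0.0870.

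Slc38a4 (SNAT4), which carries small neutral amino acids with sodium, stood at 5.59, 4.23, 1.79, 3.89 and 2.51 in non-tuft and at 2.52, 0, 0, 0 and 0 in tuft libraries. Tuft library 1 reached into the non-tuft range, and the log2 fold change was -3.10 (SE 0.73, adjusted p 0.0140 in limma). Slc7a2 (CAT2), a carrier of arginine, lysine and ornithine, stood at 2.76, 3.09, 2.80, 1.46 and 1.37 in non-tuft libraries and at 0 in every tuft library (adjusted p 0.00367). The cystine and glutamate exchanger Slc7a11 was at 0 in all tuft libraries too, with a non-tuft mean of 1.82 and an adjusted p of 0.00650, under the fold asked for.

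Other amino acid transporters were close to level. Slc38a2 (SNAT2) had means of 4.57 in tuft and 4.98 in non-tuft cells, a difference of -0.41 with an interval of -1.22 to 0.40. The heavy chain Slc3a2, the partner of several Slc7 light chains, differed by -0.62 (-1.80 to 0.57). Its light chain Slc7a5 (LAT1), a carrier of large neutral amino acids, differed by -1.59 (-2.83 to -0.35) with an adjusted p of 0.0963, and it was called without non-tuft library 5. The glutamine transporters Slc1a5 (4.22 in tuft and 4.45 in non-tuft) and Slc38a1 (5.25 and 4.71) were chosen after their values were seen, and neither was called.

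Both called nucleoside transporters were lower in tuft cells. Slc28a3 (CNT3; chr13:58646760-58712238, NCBIM37), which concentrates purine and pyrimidine nucleosides with sodium, stood at 5.33, 5.86, 3.59, 5.07 and 1.09 in non-tuft libraries. In tuft libraries it was at 0 in 4 and at 0.10 in library 5, so the groups did not overlap. The log2 fold change of -4.16 (SE 0.75, adjusted p 0.00284 in limma) was the lowest among members with a fold. Slc29a1 (ENT1; chr17:45722149-45736555, NCBIM37), the equilibrative nucleoside transporter, stood at 2.72, 4.0, 2.18, 3.56 and 3.62 in non-tuft and at 0, 0, 0.56, 0 and 1.03 in tuft libraries, a log2 fold change of -2.90 (SE 0.44, adjusted p 0.00101). Slc17a9 (VNUT), which loads ATP and other nucleotides into vesicles, was lower as well. It stood at 2.43, 3.50, 1.89, 3.41 and 2.55 in non-tuft and at 0, 0, 1.17, 0 and 1.48 in tuft libraries, a log2 fold change of -2.22 (SE 0.48, adjusted p 0.00790).

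Of the 11 members called lower, 8, 9, 7, 10 and 6 were at 0 in tuft libraries 1 to 5, a description that the call for a low level partly sets. Slc39a4 was above 0 in every tuft library. The fewest zeros were in tuft library 5, which had the lowest summed acinar level, 9.83, and the most in tuft library 4, which had the highest, 16.36. Over all members 48, 51, 43, 47 and 34 were at the floor in tuft libraries 1 to 5, so library 5 had the fewest there too. In a non-tuft library 19 to 67 were at the floor. A link of the zeros to acinar RNA was not tested.

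Several carriers of bicarbonate, anions and protons were higher in tuft cells. Slc4a8 (NDCBE), which takes in sodium and bicarbonate in exchange for chloride, stood at 5.77, 5.55, 5.41, 5.96 and 4.85 in tuft and at 3.75, 3.90, 1.60, 0 and 3.37 in non-tuft libraries. All tuft libraries were above all non-tuft libraries, with a log2 fold change of 2.98 (SE 0.69, adjusted p 0.0123 in limma). Slc4a7 (NBCn1), a sodium and bicarbonate cotransporter, stood at 6.53, 5.59, 5.54, 5.58 and 5.64 in tuft and at 2.53, 1.92, 4.42, 4.77 and 4.41 in non-tuft libraries. Its log2 fold change was 2.17 (SE 0.57, adjusted p 0.0256), and the call was lost without any 1 of 7 libraries, non-tuft 1 and 2 and each tuft library, where the log2 difference ran from 1.74 to 2.46 and the adjusted p up to 0.0653.

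Slc26a2, the sulfate transporter needed for sulfation of cartilage proteoglycans, stood at 5.15, 4.27, 6.09, 5.23 and 5.99 in tuft and at 1.00, 3.24, 1.79, 1.89 and 3.65 in non-tuft libraries. The groups did not overlap and the log2 fold change was 3.03 (SE 0.56, adjusted p 0.00349 in limma). Slc9a9 (NHE9), a sodium and proton exchanger of endosomes, was higher as well. The groups overlapped, at 2.70, 3.84, 5.00, 3.73 and 3.39 in tuft against 3.50, 2.44, 0.33, 0.41 and 0.11 in non-tuft libraries (log2 fold change 2.37, SE 0.69, adjusted p 0.0396). Its call was lost without any 1 of non-tuft libraries 3 to 5 or tuft libraries 2 to 5, with adjusted p up to 0.110.

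Slc9b2 (NHA2), another sodium and proton exchanger, differed the other way. It stood at 0, 2.86, 5.74, 4.68 and 3.62 in non-tuft and at 0, 0, 1.72, 0 and 0.13 in tuft libraries. Non-tuft library 1 was at 0 like 3 of the tuft libraries, and the log2 fold change of -3.01 (SE 0.87, adjusted p 0.0392 in limma) lost its call without any 1 of 8 libraries, all but non-tuft 1 and tuft 3, with adjusted p up to 0.0966.

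Transporters known for pancreatic duct secretion, Slc4a4, Slc26a6 and Slc12a2, were not called. The sodium and bicarbonate cotransporter Slc4a4 was low in both groups at means of 1.21 in tuft and 1.28 in non-tuft cells, and its difference of -0.07 had an interval of -1.13 to 0.99. The chloride and bicarbonate exchanger Slc26a6 differed by -0.33 (-1.72 to 1.06). Slc12a2 (NKCC1), which brings chloride into secretory cells, was well above the floor in both groups, at 4.58 in tuft and 4.46 in non-tuft cells, with a difference of 0.12 (-1.26 to 1.50). These intervals include 2-fold changes in each direction for Slc12a2 and Slc26a6.

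The mitochondrial carriers held both some of the highest and some of the most different members. Slc25a20, the carnitine and acylcarnitine carrier that brings fatty acids in for oxidation, stood at 4.76, 5.33, 6.74, 6.10 and 6.53 in tuft and at 2.16, 3.61, 2.99, 2.04 and 4.78 in non-tuft libraries. The groups touched only where tuft library 1 fell just below non-tuft library 5, and the log2 fold change was 2.78 (SE 0.59, adjusted p 0.00725 in limma). Slc25a35, a carrier without a settled substrate, was even within tuft cells at 3.22, 3.26, 3.17, 3.04 and 3.43, and stood at 1.13, 0.17, 1.57, 1.21 and 1.51 in non-tuft cells. Its log2 fold change was 2.11 (SE 0.38, adjusted p 0.00292), and its fold fell under 4 without non-tuft library 2, at 1.87 on the log2 scale. Slc25a21, which exchanges oxodicarboxylates of lysine and tryptophan breakdown, was never above the floor in non-tuft cells and stood at 1.94, 4.58, 2.94, 1.73 and 3.18 in tuft libraries (adjusted p 0.00294). It was the only called one among 6 members with a non-tuft group wholly at the floor, as 2.93% of all genes had.

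The aspartate and glutamate carriers Slc25a12 and Slc25a13, which serve the malate and aspartate shuttle and are close relatives, were chosen after their values were seen. Slc25a12 (chr2:71109120-71205806, NCBIM37) stood at 4.83, 5.04, 5.93, 5.24 and 6.08 in tuft and at 3.31, 2.71, 4.20, 3.19 and 3.83 in non-tuft libraries. Slc25a13 (chr6:5991219-6167173, NCBIM37) stood at 1.33, 0, 2.00, 2.36 and 0.97 in tuft and at 3.05, 3.06, 3.38, 2.49 and 3.09 in non-tuft libraries. Neither gene's groups overlapped, and the directions were opposite. The log2 differences were 1.98 (SE 0.43, adjusted p 0.00815) and -1.68 (SE 0.47, adjusted p 0.0334 in limma), both under the fold of 4. Within a library Slc25a12 was above Slc25a13 by 2.88 to 5.11 in tuft cells and by -0.35 to 0.82 in non-tuft cells, given as a description.

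**Figure D4:**
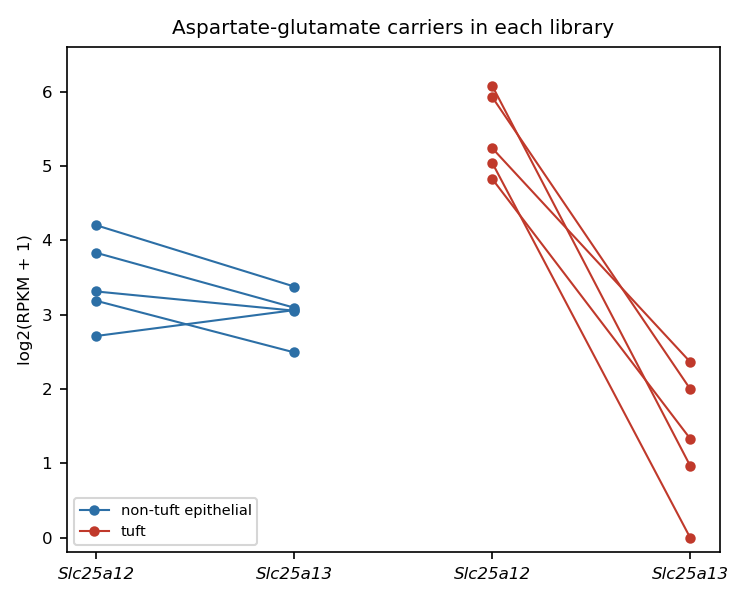
Level of Slc25a12 and Slc25a13 as log2(RPKM + 1), with a line joining the pair of values of each library. The 5 tuft libraries on the right drop by 2.88 to 5.11 from Slc25a12 to Slc25a13, and the 5 non-tuft libraries on the left stay within 0.82 of level.

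The calcium-regulated ATP-magnesium and phosphate carrier Slc25a23, also chosen after its value was seen, differed by -1.79 with an adjusted p of 0.00997. The most abundant mitochondrial members were nearly level. Slc25a3, the phosphate carrier, had means of 7.27 in tuft and 7.38 in non-tuft cells, with a difference of -0.11 (-0.85 to 0.63). The ADP and ATP carrier Slc25a5 had means of 7.15 and 6.86, a difference of 0.29 (-0.48 to 1.05). Its relative Slc25a4 stood at 4.55 in tuft and 5.88 in non-tuft cells with an adjusted p of 0.152, and Slc25a39, which brings glutathione into mitochondria, at 5.24 and 5.82 with an adjusted p of 0.513.

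**Figure D5:**
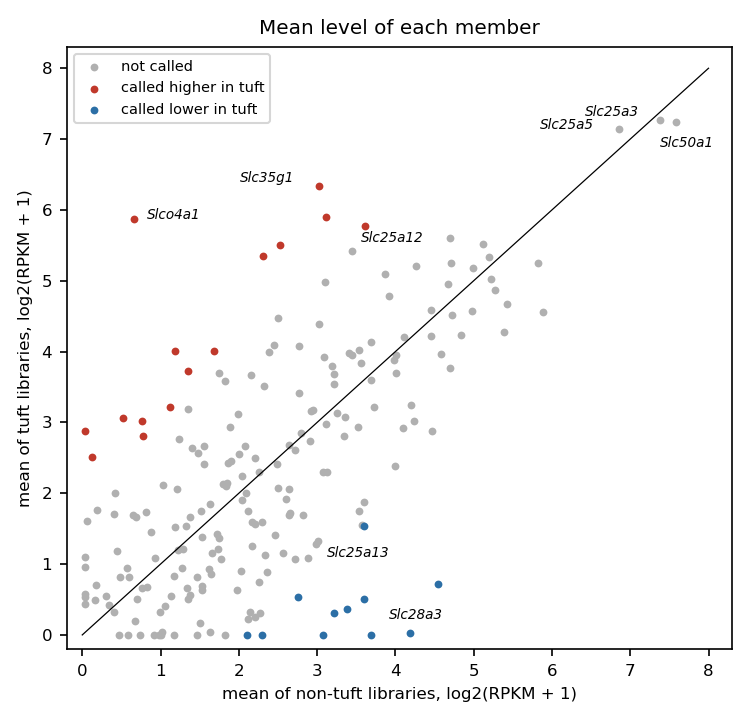
Mean log2(RPKM + 1) of each of the 213 members in the 5 tuft libraries against the 5 non-tuft libraries, coloured by call, with the line of equal level. Slc25a3, Slc25a5 and Slc50a1 are at the top in both groups, Slco4a1 and Slc35g1 lie far above the line, and Slc28a3 lies near 0 in tuft cells.

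The order of levels shows where called members rank. In tuft cells the highest means were Slc25a3 (7.27), Slc50a1 (7.25), Slc25a5 (7.15), Slc35g1 (6.34) and Slc25a20 (5.89), and the spread of the first 3 over libraries exceeds the gaps between them. In non-tuft cells they were Slc50a1 (7.59), Slc25a3 (7.38), Slc25a5 (6.86), Slc25a4 (5.88) and Slc25a39 (5.82). The first 3 places were held by the same members in both groups, and the next places by different ones.

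Slc35g1, an endoplasmic reticulum protein of the nucleotide sugar transporter family, was the only called member of 21 in that class. It stood at 7.03, 6.96, 5.63, 6.43 and 5.66 in tuft and at 5.09, 3.67, 0.63, 3.84 and 1.90 in non-tuft libraries, without overlap. The log2 fold change was 3.32 (SE 0.73, adjusted p 0.00960 in limma). Slc6a8, the creatine transporter, stood at 2.98, 2.90, 1.93, 3.48 and 2.77 in tuft and at 0.70, 0.17, 0.61, 1.96 and 0.47 in non-tuft libraries, where library 4 just passed tuft library 3. Its log2 fold change of 2.03 (SE 0.45, adjusted p 0.00926) is barely over the fold asked for, and the call was lost without any 1 of non-tuft libraries 2, 3 and 5 and tuft libraries 1 and 4, at 1.86 or more on the log2 scale and adjusted p up to 0.0251. Of the choline transporters, Slc44a4 was high in both groups, with means of 5.10 and 3.86 and an interval of the difference of -0.56 to 3.03, although non-tuft library 2 was at its floor.

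The metal transporters had 1 member called in each direction. Slc39a4 (ZIP4), which takes up zinc at the apical surface, stood at 3.31, 4.65, 3.51, 3.19 and 3.31 in non-tuft and at 1.32, 1.86, 0.92, 2.61 and 0.98 in tuft libraries. The groups did not overlap and the log2 fold change was -2.06 (SE 0.46, adjusted p 0.00973 in limma). The fold fell under 4 without non-tuft library 2, tuft library 3 or tuft library 5, to -1.79 at the smallest. Slc41a3, of the magnesium transporter family, stood at 1.28, 3.13, 2.69, 2.71 and 2.76 in tuft and at 0, 0.17, 0.04, 0 and 0.40 in non-tuft libraries, a log2 fold change of 2.39 (SE 0.41, adjusted p 0.00215). The iron exporter Slc40a1 differed by -1.82 with an adjusted p of 0.0210, under the fold asked for, and was called without tuft library 4.

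Other members of interest for the pancreas were not called. The islet zinc transporter Slc30a8 was at 0 in every tuft library and reached 2.79 in non-tuft library 1 (adjusted p 0.429). That library also had the highest summed level of islet markers, 14.45. Slc39a5 (ZIP5), a zinc transporter of acinar cells, differed by -1.89 with an interval of -3.68 to -0.10 and an adjusted p of 0.173. The lactate and pyruvate transporter Slc16a1 (MCT1) differed by -0.69 (-2.15 to 0.77). Of the 20 members fixed for their known roles, Slc5a7, which takes up choline, and Slc18a3, which loads acetylcholine into vesicles, were not analysed here.

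In all, 17 of the 26 called members kept the call whichever library was left out, 9 higher and 8 lower. The 9 that did not are Slc25a35, Slc39a4, Slc6a8, Slc4a7, Slc2a12, Slc9a9, Slc2a1, Slc38a5 and Slc9b2. The kit does not keep strand, so reads from exon stretches that overlap a gene on the other strand cannot be told apart from those of that gene. Such stretches exist in Slc29a1, Slc25a35, Slc25a21, Slc7a2, Slc2a12 and Slc2a1. The overlapping genes are Gm17080, Rangrf, Pax9, Gm17475, Tbpl1 and Gm12868 in that order. The called members Slc35g1 and Slc9b2 were not in the annotation, so their overlap was not checked.

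Transport genes not named Slc or Slco were set beside them from a written list of which 84 were listed. They were pumps and their subunits, ABC transporters, aquaporins, 11 genes of chloride and bicarbonate secretion, and 25 SLC-type carriers under other names. The secretion genes include channels and carbonic anhydrases. Neither they nor the SLC-type carriers had a called gene. Of the 11 secretion genes 9 lay below 0 and 2 above, with a median log2 difference of -1.09. In limma 5 of these 11 had an unadjusted p under 0.05, as did 3053 of all 12160 genes. Calls were made for 9.52% of the 84, 3 higher and 5 lower, where 8.31% of all genes were called. Their median log2 difference was -0.11. Atp2a3, which pumps calcium into the endoplasmic reticulum, was higher at a mean of 8.41 against 4.89 (log2 fold change 3.52, adjusted p 3.39e-04 in limma). Atp4a, the gastric proton pump subunit, differed by 2.72 (adjusted p 0.0131) and Abcb9, a lysosomal peptide transporter, by 2.49 (adjusted p 0.0192). The aquaporins Aqp5 and Aqp12, the latter known from acinar cells, were lower by -4.81 (adjusted p 0.0109) and -3.86 (adjusted p 0.00275). Atp2c2, a calcium and manganese pump of the secretory pathway, was lower by -3.46 (adjusted p 8.12e-04), and Abca2 (adjusted p 3.52e-05) and Fxyd1 (adjusted p 0.00107) were at 0 in every tuft library.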

How the data were processed

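RNA of the 10 libraries was measured by Smart-Seq2. Per the labels and the study's methods, the authors mapped reads to mm9 with Hisat2, obtained RPKM with Stringtie and Ballgown, removed genes with an RPKM variance under 1, and deposited log2(RPKM + 1) values that they quantile normalized. Versions of these tools are not given in the sources used here. Columns of the authors' own fold ratio, p-value and false discovery rate stand in the same table and were not used. No counts entered the analysis, depth is unknown, and no counting interval is given.

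The 5 tuft and 5 non-tuft libraries, grouped by their titles, were compared in R 4.3.3 with limma 3.58.1 (lmFit, then eBayes), without covariates, over all 12160 genes, with Benjamini-Hochberg adjustment. Single values were also compared by exact two-sided permutation. The fit was tested on simulated data. Both populations came from 5 mice, but the sources used here do not tie equal replicate numbers to 1 mouse, so numbers were not used to pair libraries, and the replicate block was an alternative. The limma p-values set each difference of group means against the spread between libraries within the groups. Libraries that may share a mouse were left unpaired in them.

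Members and gene lists were chosen with earlier results of these data known. The text names every called member, the 5 highest in each group and the listed ones of 20 members fixed by known role, which gave 46 genes, of which 2 are not reported here, and says where others were chosen after their values were seen. The classes follow family numbers. Alternatives were the added constant, a minimum mean, fold and p thresholds, the floor, centring on ribosomal protein genes, trend and robust fitting, a test against the fold itself (treat), the replicate block and leaving out each library. Gene positions are from GENCODE M1 on NCBIM37 (mm9), which held 204 of the 213 symbols. Promoters were RefSeq on GRCm38.p6, and no coordinates were converted.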

Additional observations from a re-analysis of the deposited data

Results flagged for a closer look

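Among the 46 named members 86 groups of 5 libraries had any spread, and 1 library stood apart from the other 4 by Dixon's 95% criterion in 19 groups over 17 members. Chance flags about 1 in 20 groups, and 9 of the 19 are groups whose other libraries are all at or near the floor. The library was high in 15 groups and low in 4.

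Among members called lower, Slc38a3 was high in tuft library 2 (2.81, the others up to 0.75) and in non-tuft library 2 (5.97, the others 4.08 to 4.26). Slc39a4 was high in non-tuft library 2 too, at 4.65 above 3.19 to 3.51. Slc28a3 was at 0.104 in tuft library 5, Slc38a4 at 2.52 in tuft library 1 and Slc9b2 at 1.72 in tuft library 3, where the other tuft libraries were at 0 or up to 0.13.

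Among members called higher, Slc41a3 was low in tuft library 1 at 1.28, Slc4a7 was high in tuft library 1 at 6.53, and Slc2a12 was high in non-tuft library 3 at 2.45. For Slc25a21 the value of 0.169 in non-tuft library 2 is only the floor of that library.

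Among members not called, Slc40a1 stood at 1.52 in tuft library 4, Slc39a5 at 1.10 in tuft library 1 and Slc2a2 at 3.14 in tuft library 2, where the other tuft libraries were at 0 or up to 0.085. Slco2a1 was low in tuft library 5 at 0.182 and high in non-tuft library 4 at 0.778. Slc44a4 was at its floor of 0.169 in non-tuft library 2, and Slc16a1 at 0 in non-tuft library 4. Slc30a8 reached 2.79 in non-tuft library 1 and Slc38a2 5.73 in non-tuft library 4. Non-tuft library 2 and tuft library 1 had 4 flags each, the most of any library, and non-tuft library 5 had 0.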

How the results depend on the processing

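The 15 members called higher and 11 called lower became 2 and 0 with 10 added to the RPKM in place of 1. With limma's treat test against the 4-fold limit they became 1 and 0. Without that limit, 68 of the 213 members and 3053 of all 12160 genes had an unadjusted limma p under 0.05. With centring on ribosomal protein genes the counts became 30 and 6, and 21 of the 26 kept the call. Centring moved the median of all genes from 0.02 to 0.81. The share of all genes called under each alternative is not given here. Whether the members moved more than all genes was not tested. A mean of at least 2 left 111 of the 213 members to be tested, with 4 called lower. The members called lower that it removed untested were Slc2a5, Slc5a1, Slc29a1, Slc7a2, Slc17a9, Slc38a5 and Slc9b2. Of those called higher it removed Slc41a3, Slc25a21, Slc2a10, Slc6a8 and Slc2a12 untested. Leaving out 1 library gave 11 to 16 higher and 8 to 14 lower. The 3 higher and 5 lower of the other transport genes became 1 and 2 with 10 added, 9 higher with centring, 3 lower at a mean of at least 2, and 2 to 4 higher and 5 to 7 lower without 1 library. The replicate block gave 14 higher and 12 lower, with 25 of the 26 calls kept. Slc9a9 lost its call (adjusted p 0.0396 without and 0.0810 with the block), and Slc15a2, a peptide transporter chosen after its values were seen, gained one at a log2 difference of -2.03 (0.106 and 0.0138). Deviations of same-numbered libraries correlated at 0.062 to 0.24, other pairs at -0.174 to 0.139, and 3 of 5 tuft and 4 of 5 non-tuft libraries correlated best with their own number.

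Of 760 values of named members under the alternatives, 648 kept direction and side of the threshold, 89 lost the call, 6 gained it and 17 reversed, none of a called member. With centring Slc30a8 became 0.057, Slc25a39 0.21, Slc3a2 0.18, Slc38a2 0.38, Slc16a1 0.099, Slc50a1 0.45, Slc26a6 0.46, Slc25a3 0.68 and Slc4a4 0.72. With 10 added Slc12a2 became -0.027 and Slc4a4 0.029. Without 1 library Slc26a6 ran from -0.65 to 0.16, Slc12a2 from -0.47 to 0.56 and Slc4a4 from -0.46 to 0.22. Slc26a6 turned without non-tuft replicate 4, Slc12a2 without non-tuft replicate 2 and, at -0.016, without tuft replicate 4, and Slc4a4 became 0.043 without non-tuft replicate 2, 0.046 without tuft replicate 3 and 0.22 without tuft replicate 5. Apart from the smaller number of libraries or genes fitted, the cause was not tested. Depth is unknown, so values at the floor set no upper limit on a level.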
